A study of Bos taurus with 96 samples.

Results

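The MHC class II DQ genes of cattle were followed in RNA sequencing of liver and muscle biopsies from 16 Holstein cows. The members were 5 of the 24616 genes in the count files, chosen by identifier: BOLA-DQA1 (ENSBTAG00000037605), BOLA-DQA2 (ENSBTAG00000009656), BOLA-DQA5 (ENSBTAG00000038128), BOLA-DQB (ENSBTAG00000019588) and HLA-DQB2 (ENSBTAG00000003352). Their differences between the genotypes and their joint presence or absence in cows were known when they were chosen, so these patterns are described below without a test. The choice by identifier used no difference between time-points or tissues, and these were tested.

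Of the 16 cows, 8 had good genetic merit for fertility traits (Fert+) and 8 had poor genetic merit (Fert-), with similar merit for milk production. Each cow was biopsied in liver and in semitendinosus muscle in late pregnancy (LP), on about the day after calving (early lactation, EL) and in mid lactation (ML), which gave 96 libraries, 16 per tissue and time-point and 6 per cow. Biopsies were whole tissue, and how the cows were related was not analysed here.

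Class II molecules are pairs of an alpha and a beta chain that carry peptides to the surface of antigen-presenting cells such as macrophages, dendritic cells and B cells, where CD4+ T cells read them. DQ is, beside DR, a classical class II molecule: DQA genes encode its alpha chain and DQB genes its beta chain. DQ genes are known to be highly polymorphic in cattle, and the number of DQ genes is known to differ between cattle haplotypes. In the RefSeq annotation of assembly ARS-UCD2.0, which is not the assembly used for the counts, 4 of the 5 members were found by symbol or synonym, and these lie next to each other, together with BOLA-DQB1, beside the DR genes BOLA-DRB3, BOLA-DRB2 and BOLA-DRA. No sequence of these genes was used here.

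Liver libraries held 14966847 to 26358063 counted read pairs and muscle libraries 15279337 to 22018740. Levels are given as CPM, the read pairs of a gene scaled to the library's total and by edgeR's TMM factors within the tissue, with no correction for gene length, so levels of different genes are not compared. The summed CPM of ALB, APOA1, TTR and FGB, which encode plasma proteins made by hepatocytes, was 54800 to 179000 in liver and at most 137 in muscle, and that of ACTA1, MYH1 and TNNT3, which encode contractile proteins of skeletal muscle, was at most 0.261 in liver. Muscle libraries at EL stood apart: this second sum was 4690 to 114000 there, against 69300 to 132000 at LP and 92700 to 178000 at ML, and 14 of the 16 EL libraries lay below every LP and ML library. A set of 13 libraries, 8 of liver and 5 of muscle, also counted 11 to 17 of 19 genes that were at or near 0 in the other 83. They are called counting batch B, and results are given without them where that matters.

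The 3 alpha chain genes divided the cows in the same way in both tissues and at all 3 time-points. BOLA-DQA2 was counted at 0 read pairs in all 6 libraries of cows 982, 3397 and 3445, and at 4 read pairs in the 6 libraries of cow 430 together. BOLA-DQA5 was likewise at 0 in all libraries of the first 3 cows and at 2 read pairs in cow 430. At the 101212969 to 130920110 read pairs counted in each of these cows, a count of 0 allows a level of up to 0.0296 CPM in cow 982, 0.0273 CPM in cow 3397 and 0.0255 CPM in cow 3445, for counting error alone. The other 12 cows had BOLA-DQA2 in every library. Their lowest value was 0.951 CPM, or 18 read pairs, in muscle of cow 782 at EL, and their highest was 68.9 CPM in liver of cow 426 at ML. BOLA-DQA5 in those 12 cows ran from 0.264 CPM in muscle of cow 782 at EL to 29.9 CPM in liver of cow 426 at ML.

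**Figure D1:**
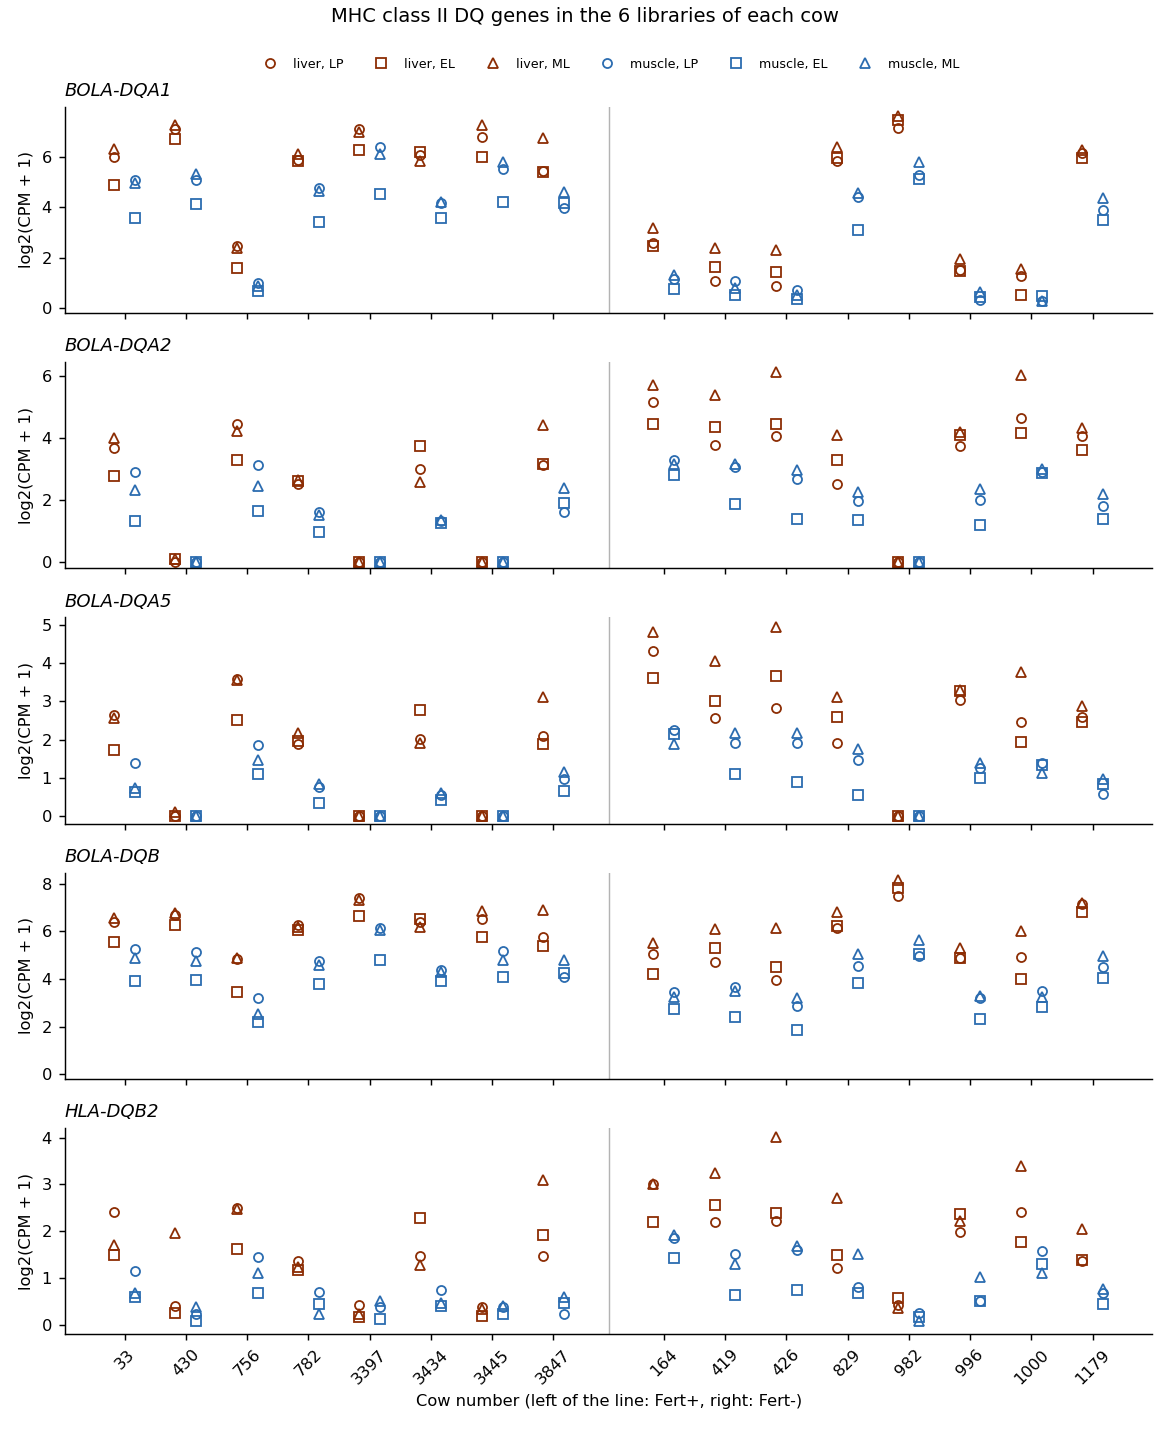
Level of each DQ gene, as log2(CPM + 1), in the 6 libraries of each of the 16 cows, with liver in brown, muscle in blue and 1 symbol per time-point. BOLA-DQA2 and BOLA-DQA5 are at or near 0 in cows 430, 982, 3397 and 3445, and BOLA-DQA1 is low in cows 164, 419, 426, 756, 996 and 1000, in both tissues.

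BOLA-DQA1 divided the cows along another line. In liver at LP it stood at 139 CPM in cow 982, 138 in cow 3397, 137 in cow 430, 111 in cow 3445, 70 in cow 1179, 66.3 in cow 3434, 63.5 in cow 33, 57.6 in cow 782, 56.7 in cow 829 and 42.5 in cow 3847. In the other 6 cows it stood at 4.92 (cow 164), 4.5 (cow 756), 1.89 (cow 996), 1.39 (cow 1000), 1.11 (cow 419) and 0.824 CPM (cow 426). These same 6 cows were the lowest of the 16 in both tissues at all 3 time-points. In muscle at LP the tenth cow stood at 13.7 CPM and the eleventh at 1.23. The tenth and the eleventh cow were as far apart at EL (7.61 against 0.684) and at ML (17.3 against 1.46). In muscle the 6 cows had 3 to 27 read pairs of BOLA-DQA1 per library, so that their order among themselves rests on few reads.

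No cow lacked both kinds of alpha chain transcript. The 4 cows at or near 0 for BOLA-DQA2 and BOLA-DQA5 (430, 982, 3397 and 3445) had the 4 highest BOLA-DQA1 values of the 16 cows in liver at LP and ML and in muscle at LP and ML, and were among the 5 highest in both tissues at EL. Cows 33, 782, 829, 1179, 3434 and 3847 had both BOLA-DQA1 and BOLA-DQA2 at many read pairs. With a limit of 1 CPM in every library, BOLA-DQA2 was below it in all 6 libraries of 4 cows, above it in all 6 of 11 cows and mixed in cow 782. The same limit put BOLA-DQA5 below in 4 cows, above in 5 and mixed in 7, since its muscle levels straddled 1 CPM. BOLA-DQA1 was below in 0 cows, above in 10 and mixed in 6. BOLA-DQA2 and BOLA-DQA5 were on the same side of 1 CPM in 82 of 96 libraries (48 of 48 in liver and 34 of 48 in muscle). When each gene was divided at the widest gap between cow means instead, they were on the same side in 96 of 96. That limit is set from these same values, so the number describes the pattern and tests nothing. BOLA-DQA1 and BOLA-DQA2 were both below 1 CPM in 0 libraries, and both below 2 CPM in 2 libraries, the muscle of cows 426 and 996 at EL.

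**Figure D2:**
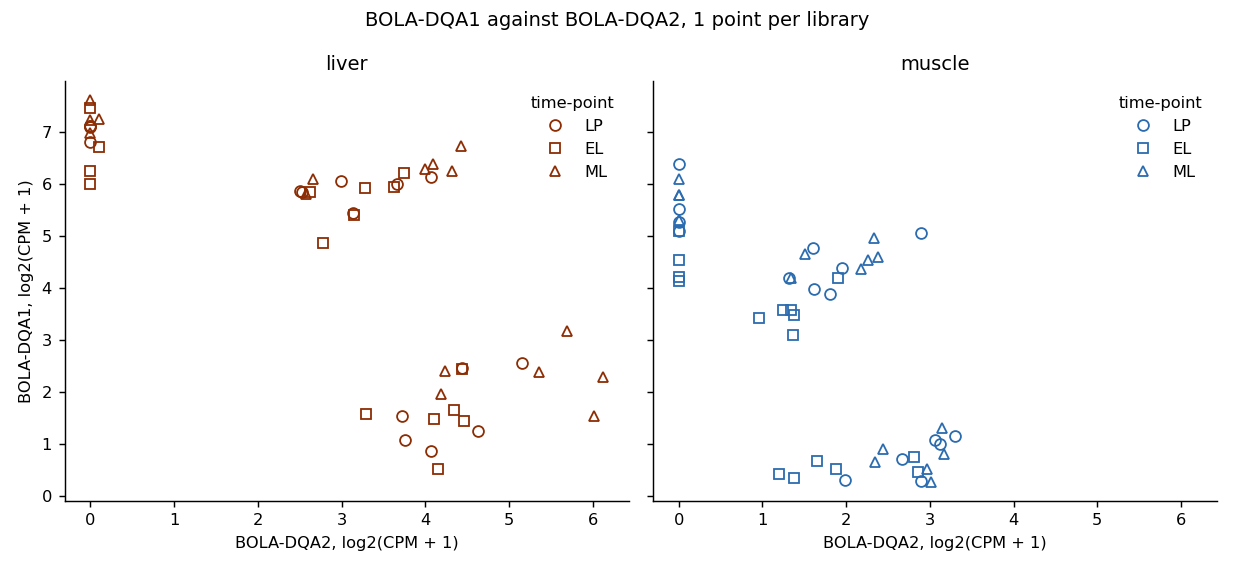
BOLA-DQA1 against BOLA-DQA2, each as log2(CPM + 1), with 1 point per library, liver left and muscle right. The points fall in 3 separate areas in each tissue: BOLA-DQA2 at or near 0 with high BOLA-DQA1, both genes present, and BOLA-DQA2 present with low BOLA-DQA1. No library was below 1 CPM for both.

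The division held as a share of reads, which does not depend on library scaling. Of the read pairs on the 3 DQA genes, BOLA-DQA1 took at least 99.9% in the 6 libraries of cow 430 and 100% in those of cows 982, 3397 and 3445. In cows 33, 782, 829, 1179, 3434 and 3847 it took 75.0% to 90.7% over both tissues, with cow 1179 the lowest in liver at ML and cow 782 the highest in muscle at LP. In cows 164, 419, 426, 756, 996 and 1000 it took 2.14% (cow 1000, liver at EL) to 15.4% (cow 756, muscle at EL). No library of any cow had a share between 15.4% and 75.0%. The libraries of a cow lay close together, and in cow 3847, for example, the share was 79.0% to 79.7% over 3 liver libraries and 81.1% to 83.9% over 3 muscle libraries. In none of the 16 cows did the 6 libraries fall on both sides of this gap.

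**Figure D3:**
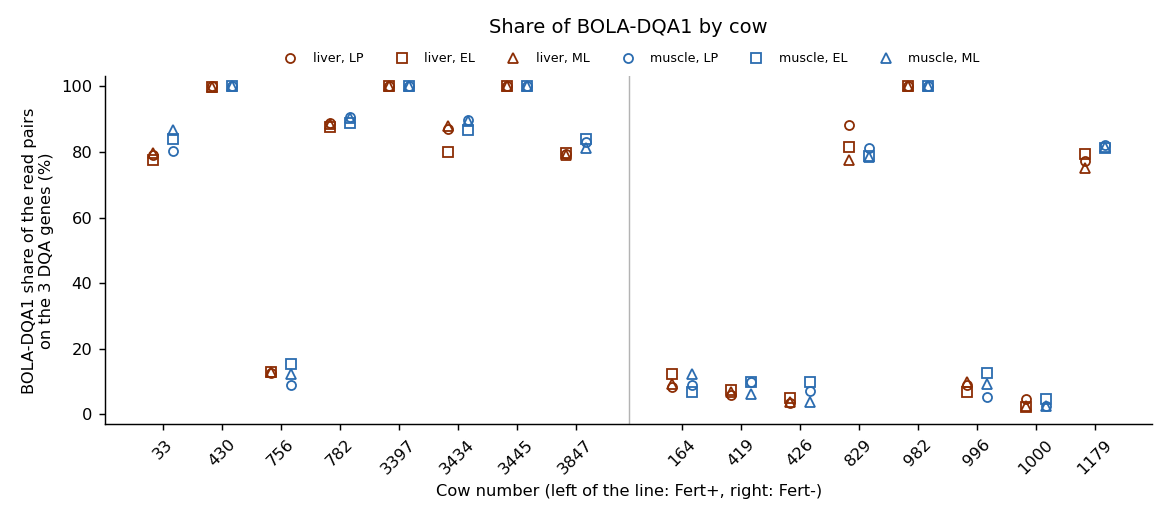
Share of BOLA-DQA1 in the read pairs counted on the 3 DQA genes, in percent, for each library of each cow, liver in brown and muscle in blue. All libraries lie either at or below 15.4% or at or above 75.0%, and the 6 libraries of a cow lie on the same side.

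BOLA-DQA5 and BOLA-DQA2 did not keep a single ratio. In liver, BOLA-DQA5 took 14.6% to 16.6% of the read pairs on these 2 genes in cow 1000, against 24.3% (cow 1179) to 39.9% (cow 782) in the other 11 cows that have them. In muscle cow 1000 had 14.3% to 20%, which overlapped with cows 33, 1179, 3434 and 3847. Read pairs of closely alike DQ genes can be placed on either of them, so the split is uncertain.

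Of the beta chain genes, BOLA-DQB was present in every library, from 2.63 CPM (cow 426, muscle at EL, 59 read pairs) to 282 CPM (cow 982, liver at ML). It followed BOLA-DQA1 in rank: cows 164, 419, 426, 756, 996 and 1000 were also the 6 lowest of the 16 for BOLA-DQB in each tissue at each time-point. The step between the tenth and the eleventh cow was wide in muscle at EL (13 against 6.05 CPM) and ML (18.6 against 10.4) and in liver at LP (53.5 against 32.4). It was narrower in muscle at LP (15.8 against 11.7), where the first and the second cow were further apart (69.7 against 37.2). It was small in liver at EL (40.6 against 37.9) and at ML (70.7 against 69.4). BOLA-DQB was thus graded rather than present or absent.

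HLA-DQB2, a gene named after its human counterpart, was counted at low levels throughout. It had 1 to 7 read pairs in each library of cows 982, 3397 and 3445, and 1 to 5 in the muscle libraries of cow 430. The liver of cow 430 had 0.320 CPM at LP, 0.186 at EL and 2.92 CPM, or 81 read pairs, at ML. BOLA-DQA2 stood at 2 read pairs in that ML library and BOLA-DQA5 at 2, so HLA-DQB2 left the common pattern there. That library belongs to counting batch B, and the part of the batch in this value was not tested. In the other 12 cows HLA-DQB2 ran from 1.24 to 15.1 CPM in liver and from 0.168 to 2.76 CPM in muscle. In muscle these cows overlapped with cows 430, 982, 3397 and 3445 at LP and ML. At LP cow 3847 (0.168 CPM) lay below all 4 of them. At ML cow 782 (0.184 CPM) lay below cows 3397 (0.42), 3445 (0.332) and 430 (0.313). HLA-DQB2 was on the same side of 1 CPM as BOLA-DQA5 in 89 of 96 libraries and as BOLA-DQA2 in 75. In 38 of the 89 both genes were below 1 CPM. These numbers depended on the limit: they were 84 and 85 at 0.5 CPM and 79 and 62 at 2 CPM. At the widest gap between cow means they were 64 for either gene, with 17 of 48 in muscle.

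The spread between cows was larger for the DQ genes than for the 4 other class II pathway genes that could be matched. After the mean of each time-point was removed from log2(CPM + 1), differences between the 16 cows took up 98.5% of the variance of BOLA-DQA1 in liver and 97.9% in muscle, and 95.4% and 93.4% for BOLA-DQA2. BOLA-DQA5 had 93.4% and 89.7%, BOLA-DQB 88% and 94.1%, and HLA-DQB2 81.9% and 84.9%. The median over all genes tested was 43.7% in liver and 44.2% in muscle. BOLA-DRA, the alpha chain of DR, had 39.2% and 55.1%, and CD74, the invariant chain that escorts class II molecules, 34.9% and 55.0%. BOLA-DMA, a chain of the peptide-exchange factor DM, had 56.8% and 56.9%, and LGMN, an endosomal protease, 45.3% and 57.7%. The highest cow exceeded the lowest by 2.15-fold for BOLA-DRA and 1.9-fold for CD74 in liver, taking the median of a cow's 3 libraries. For the sum of the 3 DQA genes this ratio was 6.62 (26.6 to 176 CPM) and for the sum of both DQB genes 8.65 (25.7 to 223 CPM). In muscle it was 14.8 and 11, against 2.41 for BOLA-DRA and 2.5 for CD74. These sums count read pairs placed on the reference genes. How read pairs of alleles unlike the reference were placed, and their part in these ratios, was not tested. BOLA-DMA had 3.24 in liver and 2.82 in muscle, and LGMN 2.16 and 1.98. A wide spread was not particular to the DQ genes: MARCO, a scavenger receptor of Kupffer cells, had 81.1% and a ratio of 7.5 in liver. Since the members were chosen for this pattern, these figures describe them and test nothing.

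In the order of condition medians, liver at ML came first and muscle at EL last for each of the 5 genes. BOLA-DQA1 had a median of 71.9 CPM in liver at ML (range 1.92 to 196), 57.2 at LP (0.824 to 139) and 49.2 at EL (0.427 to 176), then 21.1 in muscle at ML (0.207 to 67.9), 16 at LP (0.220 to 82.9) and 9.95 at EL (0.267 to 33.5). BOLA-DQB had 82.4, 73.3 and 49.5 CPM in liver at ML, LP and EL, and 24.3, 20.8 and 13.8 CPM in muscle. BOLA-DQA2 had 16.7, 9.71 and 8.72 CPM in liver and 3.90, 2.69 and 1.55 CPM in muscle, in the same order of time-points. BOLA-DQA5 had 7.03, 3.87 and 3.72 CPM in liver at ML, LP and EL, and 1.07, 1.17 and 0.563 CPM in muscle. HLA-DQB2 had 3.41, 1.78 and 1.97 CPM in liver, and 0.658, 0.657 and 0.406 CPM in muscle. The ranges of the conditions overlapped for each gene. For BOLA-DQB the overlap was narrow between liver at ML (28.2 to 282 CPM) and muscle at EL (2.63 to 31.8 CPM). Since cows differed widely within a condition, conditions were compared within cows.

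In muscle all 5 DQ genes fell from LP to EL and rose again by ML. Between LP and EL the fold changes were of similar size, from -0.94 to -0.82 on the log2 scale with standard errors of 0.11 to 0.21, and the median over the 5 genes was -0.89 against 0.01 over all genes tested. All 5 genes were called lower at EL, where 27.9% of the 12304 genes tested were called lower. BOLA-DQA1 fell by 0.94 ± 0.13 (log2, SE, 16 cows, adjusted p = 1.74e-07) and was lower at EL in 13 of 16 cows. BOLA-DQB fell by 0.89 ± 0.11 (adjusted p = 1.63e-08) and was lower in 14 of 16 cows. BOLA-DQA2 was lower in 11 of the 12 cows that have it (log2 fold change -0.94 ± 0.18, adjusted p = 5.83e-05), and so was BOLA-DQA5 (-0.82 ± 0.21, adjusted p = 0.00164). HLA-DQB2 was lower in 14 of 16 cows (-0.87 ± 0.20, adjusted p = 0.000348).

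From EL to ML in muscle the 5 genes rose by 0.85 to 1.07 on the log2 scale (median 0.88, against 0.01 over all genes tested), and all 5 were called higher, as were 31.7% of all genes tested. BOLA-DQB was higher at ML in 16 of 16 cows (0.88 ± 0.11, adjusted p = 1.06e-08), BOLA-DQA1 in 15 of 16 (1.07 ± 0.13, adjusted p = 7.76e-09) and BOLA-DQA2 in all 12 cows that have it (1.02 ± 0.18, adjusted p = 1.57e-05). ML and LP were not told apart in muscle by edgeR's quasi-likelihood test: 0 of 5 genes were called, 0 had an unadjusted p under 0.05 and DESeq2 called 0, with log2 fold changes of -0.01 to 0.13 and standard errors of 0.11 to 0.20, while 4.17% of all genes tested were called higher. Both changes share the EL libraries, so they are not independent of each other.

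**Figure D4:**
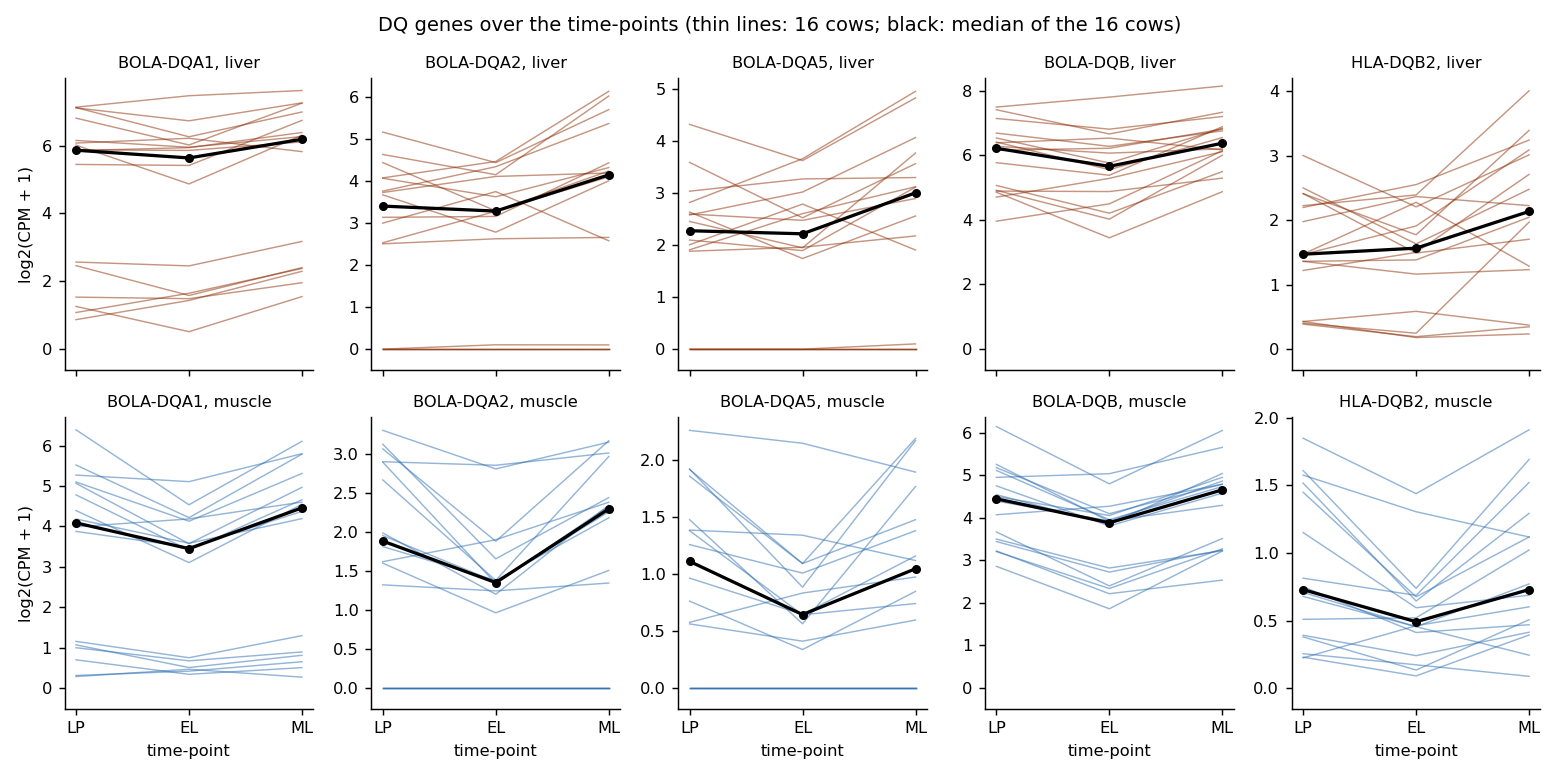
Level of each DQ gene, as log2(CPM + 1), at LP, EL and ML in liver (upper row) and muscle (lower row). Thin lines are the 16 cows and black points the median of the 16 cows. In muscle most lines dip at EL, and in liver most rise from EL to ML.

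The fall of the DQ genes in muscle came at the same time-point as the low muscle transcripts noted above. Whether they go together from cow to cow was not tested. ACTA1 fell by 2.14 ± 0.25 on the log2 scale from LP to EL and was lower in 16 of 16 cows, and TNNT3 fell by 1.38 ± 0.16, also in 16 of 16. Cows 430 and 782 alone had an EL muscle library whose sum of ACTA1, MYH1 and TNNT3 (114000 and 89600 CPM) was within the range of the LP libraries. In cow 430 BOLA-DQA1 went from 33.3 CPM at LP to 16.5 at EL and BOLA-DQB from 33.6 to 14.5. In cow 782 BOLA-DQA1 went from 26.5 to 9.67 and BOLA-DQB from 25.9 to 13. With the other 14 EL libraries left out, an alternative chosen after seeing the data, BOLA-DQA1 (-1.18 ± 0.19, adjusted p = 0.000222) and BOLA-DQB (-0.96 ± 0.25, adjusted p = 0.0107) were still called lower at EL. BOLA-DQA2 (-0.97 ± 0.51), BOLA-DQA5 (-1.45 ± 0.69) and HLA-DQB2 (-0.59 ± 0.70) were not, with adjusted p from 0.15 to 0.603. Over all genes the calls fell from 7176 to 2508 in this fit, so the loss is not particular to these 3 genes. For BOLA-DQA2 and BOLA-DQA5 the fit also rests on 1 cow, 782, since the muscle of cow 430 has 0 read pairs of either gene, and says nothing of whether their change holds. In bulk tissue, fewer cells of a type and less RNA per cell cannot be told apart.

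In liver the fold changes from LP to EL were -0.35 to -0.04 on the log2 scale, with standard errors of 0.15 to 0.27, and all 5 genes rose by ML. BOLA-DQA1 and BOLA-DQB were each lower at EL in 11 of 16 cows. From LP to EL 0 of 5 genes were called by edgeR's quasi-likelihood test, 1 had an unadjusted p under 0.05 (BOLA-DQB, -0.35 ± 0.15, adjusted p = 0.183) and DESeq2 called 0, while 1.42% of the 13406 genes tested were called lower. From EL to ML all 5 were called higher, by 0.77 to 0.98 on the log2 scale (median 0.87, against -0.01 over all genes tested), where 21.3% of all genes tested were called higher. BOLA-DQB rose by 0.87 ± 0.15 (adjusted p = 8.63e-05) and BOLA-DQA1 by 0.77 ± 0.15 (adjusted p = 0.000238), each in 15 of 16 cows. HLA-DQB2 rose by 0.98 ± 0.26 (adjusted p = 0.00346), in 13 of 16 cows. BOLA-DQA2 rose by 0.90 ± 0.22 (adjusted p = 0.00218) and was higher in 11 of the 12 cows that have it and lower in cow 3434.

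From LP to ML in liver all 5 were again called higher, as were 8.84% of all genes tested. The fold changes were 0.51 ± 0.15 for BOLA-DQA1 (adjusted p = 0.0192) and 0.53 ± 0.15 for BOLA-DQB (adjusted p = 0.0192). BOLA-DQA2 rose by 0.85 ± 0.22 (adjusted p = 0.0102) and BOLA-DQA5 by 0.82 ± 0.22 (adjusted p = 0.0125). HLA-DQB2 (0.81 ± 0.26, adjusted p = 0.034) was higher in only 9 of 16 cows. Its call was lost without the batch B libraries (0.66 ± 0.25, adjusted p = 0.0818) and without any 1 of cows 419, 426, 430, 829, 1000, 1179 or 3847, where the adjusted p was between 0.0567 and 0.0952. The call of BOLA-DQB was lost without cow 426 (0.42 ± 0.14, adjusted p = 0.0545). In a fit without cow as a block, in which the spread between cows enters the error, 0 of 5 genes were called in liver from EL to ML or from LP to ML, and 1 of 5 in muscle for each of the changes around EL. Over all genes the calls in these fits went from 5672 to 5162 and from 2065 to 1584 in liver, and from 7176 to 6712 and from 7833 to 7353 in muscle.

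**Figure D5:**
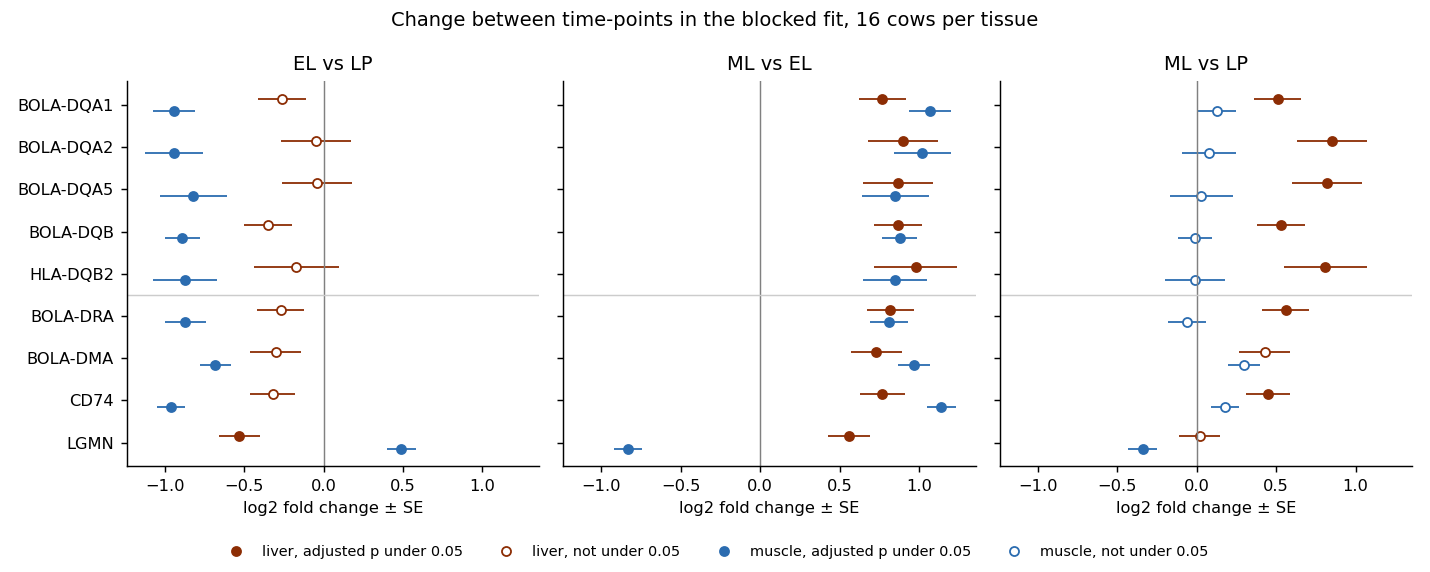
Log2 fold change ± SE between time-points in the fit with cow as a block, for the 5 DQ genes (above the grey line) and the 4 other class II pathway genes that could be matched (below it), liver in brown and muscle in blue. Filled points have an adjusted p under 0.05. The DQ genes lie at -0.94 to -0.82 in muscle and at -0.35 to -0.04 in liver for EL vs LP.

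Whether the tissues differed in these changes was tested as an interaction over all 96 libraries. The change from LP to EL was higher in liver than in muscle for 4 of 5 genes, at an interaction of 0.73 ± 0.21 for BOLA-DQA1 (log2, adjusted p = 0.00486), 0.95 ± 0.30 for BOLA-DQA2 (adjusted p = 0.0135), 0.83 ± 0.32 for BOLA-DQA5 (adjusted p = 0.0458) and 0.59 ± 0.19 for BOLA-DQB (adjusted p = 0.0153). HLA-DQB2 had 0.74 ± 0.35 (adjusted p = 0.106). The call of BOLA-DQA5 ended without the filter on low counts (adjusted p = 0.0626), and all 4 ended without cow as a block, with adjusted p from 0.378 to 0.594. Of all 14236 genes tested, 16.2% were called in this direction. The change from EL to ML was not told apart between the tissues by edgeR's quasi-likelihood test: 0 of 5 genes were called and 0 had an unadjusted p under 0.05, with interactions of -0.36 to 0.06 and standard errors of 0.19 to 0.40, where 23.2% of all genes tested were called lower. Without the 14 muscle EL libraries the LP to EL interaction was called for 0 of 5 genes, at 1.01 ± 0.35 for BOLA-DQA1 (adjusted p = 0.0692) and 0.70 ± 0.38 for BOLA-DQB (adjusted p = 0.3), while the calls over all genes fell from 4084 to 990.

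Liver exceeded muscle in each DQ gene at each time-point. The fold changes ran from 1.19 to 1.65 on the log2 scale at LP, where 47.1% of the 13155 genes tested were called higher in liver, from 1.78 to 2.37 at EL (41.6% of 13210) and from 1.68 to 2.47 at ML (45.8% of 13346). All 5 genes were called at each time-point, with the highest adjusted p at 1.93e-06. BOLA-DQA1 and BOLA-DQB were higher in the liver of 16 of 16 cows at all 3 time-points. HLA-DQB2 was higher in 15, 15 and 14 of 16 cows at LP, EL and ML. Liver and muscle were scaled together for these fits, and 11686, 11394 and 11902 genes were called in either direction at LP, EL and ML.

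Of 19 genes listed for the class II pathway, 4 could be matched to an identifier: BOLA-DRA, CD74, BOLA-DMA, which encodes a chain of the peptide-exchange factor DM, and LGMN, an endosomal protease. In muscle 3 of 4 were called lower at EL than at LP. BOLA-DRA fell by 0.87 ± 0.13 (adjusted p = 4.31e-07), CD74 by 0.96 ± 0.09 (adjusted p = 2.77e-10) and BOLA-DMA by 0.68 ± 0.10 (adjusted p = 1.14e-06). LGMN, which also works outside antigen presentation, was called higher (0.49 ± 0.09, adjusted p = 3.13e-05). The same 3 were called higher from EL to ML in muscle, and LGMN was called lower. In liver 0 of 4 were called higher and 1, LGMN, was called lower from LP to EL (-0.53 ± 0.13, adjusted p = 0.0326), and 4 of 4 were called higher from EL to ML, BOLA-DRA by 0.82 ± 0.15 (adjusted p = 0.000122). From LP to ML in liver 2 of 4 were called higher: BOLA-DRA by 0.56 ± 0.15 (adjusted p = 0.0119) and CD74 by 0.45 ± 0.14 (adjusted p = 0.0314). The change from LP to EL was called higher in liver than in muscle for BOLA-DRA (interaction 0.66 ± 0.20, adjusted p = 0.00944) and CD74 (0.69 ± 0.18, adjusted p = 0.00178) and lower for LGMN (-0.97 ± 0.17, adjusted p = 7.24e-06). The medians of these 4 genes were -0.77 and 0.89 for the 2 successive changes in muscle and -0.31 and 0.75 in liver.

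Markers of the cells that carry class II molecules could be matched only in part. Of 8 macrophage and dendritic cell markers 1 was matched, MARCO, a scavenger receptor of Kupffer cells. Its level in liver was 17.6 to 173 CPM at LP, 20.6 to 168 at EL and 21.6 to 154 at ML, and it was not called between EL and ML (-0.09 ± 0.16, adjusted p = 0.668). In muscle MARCO was at 0 in all LP and EL libraries and at most 0.114 CPM at ML. Of 5 B cell markers 1 was matched, CD79B, a chain of the B cell receptor complex. It had 0.0382 to 1.42 CPM in liver and at most 0.286 CPM in muscle, and was called higher in liver at ML than at EL (0.91 ± 0.26, adjusted p = 0.00544). Of 4 T cell markers 0 were matched. The part of these cells in the changes of the DQ genes was not tested.

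Between the genotypes the values are a description only. Of the 4 cows at or near 0 for BOLA-DQA2 and BOLA-DQA5, 3 were Fert+ (430, 3397 and 3445) and 1 was Fert- (982). Of the 6 cows lowest in BOLA-DQA1, 5 were Fert- (164, 419, 426, 996 and 1000) and 1 was Fert+ (756). The median of BOLA-DQA1 in liver at LP was thus 64.9 CPM in Fert+ cows (4.5 to 138) and 3.40 CPM in Fert- cows (0.824 to 139). In muscle at LP it was 29.5 CPM (1 to 82.9) and 1.16 CPM (0.220 to 37.6). The median of BOLA-DQA2 in liver at ML was 5.13 CPM in Fert+ cows (0.0 to 20.5) and 29.5 CPM in Fert- cows (0.0 to 68.9). The ranges of the 2 genotypes overlapped for all 5 genes in both tissues at all 3 time-points. Log2 fold changes of Fert+ against Fert- for BOLA-DQA1 ran from 0.51 ± 0.97 (liver at EL) to 1.76 ± 0.94 (muscle at LP). Those for BOLA-DQA2 ran from -2.13 ± 1.01 (liver at ML) to -0.89 ± 0.82 (muscle at LP), and those for BOLA-DQB from -0.15 ± 0.54 (liver at EL) to 1.02 ± 0.40 (muscle at LP). Without the batch B libraries the fold changes in liver at LP moved from -1.19 to -2.20 for BOLA-DQA2, from -0.96 to -2.05 for BOLA-DQA5 and from -0.71 to -1.61 for HLA-DQB2. The 2 libraries left out there were of Fert+ cows 33 and 756. These cows had the highest Fert+ values of each of these genes in liver at LP, for BOLA-DQA2 11.7 and 20.6 CPM. Leaving out the batch thus also left out these cows, and the 2 cannot be told apart.

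Counts of calls between the genotypes are given for completeness, and nothing is read from them for the members, which were chosen on this contrast. By edgeR's quasi-likelihood test 0 of 5 members were called in liver at LP, EL or ML, and 0.0% of the 12872, 13047 and 13235 genes tested were called. In muscle 0 members were called by the same test at LP, EL or ML, against 0.0% of 11954 genes, 0.00831% of 12035 (1 gene) and 0.0% of 12001. HLA-DQB2 did not pass the filter on low counts in muscle at EL, and its fold change there (-1.21 ± 0.47) is from the fit without that filter. An unadjusted p under 0.05 was reached by 0, 0 and 1 members in liver and 1, 1 and 2 in muscle. Over all genes, 842, 1530 and 1640 in liver and 800, 1426 and 918 in muscle had an unadjusted p under 0.05, and DESeq2 called 0, 6 and 77 in liver and 27, 119 and 10 in muscle, with 0 members among them.

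Among the genes that were below 1 CPM in at least 10% and above it in at least 10% of the libraries of each tissue, other members came first for likeness to BOLA-DQA2, BOLA-DQA5 and HLA-DQB2. The members were chosen with their joint presence or absence known, so their likeness to each other is a description and tests nothing. Over 96 libraries from 16 cows, BOLA-DQA2 shared its side of 1 CPM with BOLA-DQA5 in 82, with HLA-DQB2 in 75 and with MICB, a gene of the MHC class I chain-related family, in 72, against a median of 46 over 484 genes. After the other DQ genes, PTPRD was the next for BOLA-DQA5 (67 libraries) and for HLA-DQB2 (72), against a median of 50. BOLA-DQA1 was most like ENSBTAG00000004945 and ENSBTAG00000046142 (77 libraries each) and NMNAT2 (75), against a median of 48 over 485 genes. It was itself below 1 CPM in only 2 of 48 liver libraries, so that in liver (43 and 44 of the 77) the measure mostly counts where the other gene is present. BOLA-DQB was never below 1 CPM, so its likeness by this measure, 85 libraries each for ENSBTAG00000004945, ENSBTAG00000013680 and ENSBTAG00000019302, only counts libraries in which the other gene was present.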

How the data were processed

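Libraries were made from polyA RNA with the Illumina TruSeq v2 kit. The authors trimmed reads, aligned them with STAR to the UMD_3.1 genome with Ensembl70 genes, allowing few mismatches, kept properly paired primary alignments and deposited, for each library, counts of read pairs per gene from featureCounts, without normalization. Per the labels, CASAVA 1.8 and edgeR were also used. How read pairs from alleles that differ from the reference, or from near-identical DQ copies, were placed was not tested. A further 96 columns of counts carry no sample names and were not used. The 336 pairs of libraries within a group included 0 with the same counts. Gene symbols, for 1716 identifiers, came from supplementary tables of the study.

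Here genes were tested with edgeR 4.0.16 (R 4.3.3, limma 3.58.1): filterByExpr, TMM factors, robust quasi-likelihood test, two-sided, Benjamini-Hochberg adjustment over all genes tested, threshold 0.05. Time-points (48 libraries per tissue) and tissues (32 per time-point) were fitted with cow as a block, since a cow number in the labels marks the same animal. Of the 48 pairs of libraries of a cow per tissue, 39 in liver and 42 in muscle correlated above 0.1 in their deviations from group means (medians 0.255 and 0.253). The interaction used cow within tissue. Genotypes were fitted per tissue and time-point. SEs come from these fits, and intervals and limits cover counting error only. Only the fit between LP and EL with cow as a block was run on simulated counts, drawn from the fitted model of each tissue. The tissue, interaction and genotype fits were not simulated. Tables used Python 3.11.15, numpy 2.4.6 and pandas 2.3.3.

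Named genes are the 5 members, matched genes of the lists and, per member, the 3 genes most often on its side of 1 CPM. Members and lists were chosen with earlier results of these data known. Alternatives were no replicate block, RLE factors, no gene filter, DESeq2 1.42.0, no batch B, each cow left out, an exact test with a common dispersion, other limits than 1 CPM, and, added after seeing the data, muscle EL libraries left out.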

Additional observations from a re-analysis of the deposited data

Results flagged for a closer look

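Within the 8 cows of a genotype, 13 values of the DQ genes stood apart from the rest of their group, by the size of the gap to the nearest cow against the range of the group. They came from 60 groups checked, and in unselected values about 1 group in 20 is flagged by chance. These genes were chosen for differences between cows and the groups share cows, so the values are a description and nothing is read from their number. Cow 982 was far above the other Fert- cows for BOLA-DQA1 in liver at EL (176 CPM, the next at 60.8) and ML (196, the next at 82.5) and in muscle at EL (33.5, the next at 10.2) and ML (54.7, the next at 22.4). It was also highest for BOLA-DQB in liver at EL (222 CPM, the next at 111) and ML (282, the next at 146) and in muscle at EL (31.8, the next at 15.6). Cow 3397 was highest of the Fert+ cows for BOLA-DQB in muscle at LP (69.7 CPM, the next at 37.2) and ML (65.3, the next at 28.1). BOLA-DQA5 was highest in cow 756 among the Fert+ cows in liver at LP (11 CPM, the next at 5.20), and in cow 164 among the Fert- cows in liver at LP (18.9, the next at 7.18) and muscle at EL (3.42, the next at 1.53). HLA-DQB2 was highest in cow 756 among the Fert+ cows in muscle at ML (1.17 CPM, the next at 0.610).

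The change from LP to EL differed between liver and muscle by the interaction test for 4 genes, at 0.73 for BOLA-DQA1, 0.95 for BOLA-DQA2, 0.83 for BOLA-DQA5 and 0.59 for BOLA-DQB on the log2 scale. Muscle transcripts fell in the muscle EL libraries at the same time, and their part in this was not tested.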

How the results depend on the processing

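RLE factors, no gene filter, DESeq2 (not run for the interactions) and removal of the batch B libraries left the number of DQ genes called in each time, tissue and interaction comparison within 1.5 times the reported one. Of 640 values of single genes between time-points 607 stayed on their side of the threshold and 33 lost their call, as did 1 of 318 between tissues and 9 of 50 interactions, and none reversed. Without the replicate block, so that cows are not paired, 0 of 5 genes were called in liver from EL to ML and 0 from LP to ML, 1 in muscle from LP to EL and 1 from EL to ML, and 0 in the LP to EL interaction. BOLA-DQA1 was then also not called between tissues at LP (1.32 ± 0.72, adjusted p = 0.0873). Leaving out each cow gave 3 to 5 genes called in liver from LP to ML, the lowest without cow 426, and changed the count in no other time or tissue comparison. It was not run for the interactions. With 14 muscle EL libraries left out, 2 genes were called from LP to EL, 2 from EL to ML, 3 between tissues at EL (BOLA-DQA5 and HLA-DQB2 had too few read pairs to be tested) and 0 in the LP to EL interaction. BOLA-DQA5 also lost its interaction without a gene filter (adjusted p = 0.0626).

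Counts over all genes moved too. From LP to EL in liver the 332 calls became 193 without a filter, 889 with DESeq2, 0 without batch B and 8 to 1468 with a cow left out. With the 14 muscle EL libraries left out, the calls fell from 7176 to 2508 in muscle from LP to EL, from 7833 to 3469 from EL to ML, from 11394 to 9975 between tissues at EL and from 4084 to 990 in the LP to EL interaction. The 1120 calls of muscle from LP to ML became 713 without the replicate block. RLE factors moved the median of all genes between tissues at EL from -0.07 to 0.06. Between genotypes an exact test with a common dispersion was also run. In liver it called 306 of 12872 genes at LP, 301 of 13047 at EL and 279 of 13235 at ML. DQ genes among these were 3, 3 and 4. For muscle it called 214 of 11954, 438 of 12035 and 214 of 12001, with 5, 3 and 4 DQ genes. The members were chosen on this contrast, so nothing is read from these counts for them. The cause of the shifts in counts was not tested.

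The number of cows below the limit in all 6 libraries rose for BOLA-DQA1 from 0 to 1 at 2 CPM and to 6 at the widest gap, and for BOLA-DQB from 0 to 6 at the widest gap. For the other genes this count stayed within 1.5 times. In liver the widest gap of BOLA-DQB lay at 177 CPM, with 15 cows below it, so the 6 cows are those below in muscle. The number of cows above the limit in all 6 libraries also moved. For BOLA-DQA2 it went from 11 to 5 at 2 CPM. For BOLA-DQA5 it went from 5 to 8 at 0.5 CPM, to 1 at 2 CPM and to 12 at the widest gap. HLA-DQB2 went from 2 to 7 at 0.5 CPM and to 0 at 2 CPM and at the widest gap, and BOLA-DQB from 16 to 1 at the widest gap. Depth limits HLA-DQB2 and, in 6 cows, BOLA-DQA1 in muscle, where libraries hold as few as 1 and 3 read pairs.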
